A study of Mus musculus with 20 samples.

Results

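Genes that decide whether a cell survives a death signal were followed in macrophages exposed to fractions of inflamed lung fluid. The 10 genes were the Bcl2a1 paralogs Bcl2a1a, Bcl2a1b and Bcl2a1d, the BCL2 family members Mcl1, Bcl2, Bcl2l1 and Bcl2l11, and the inhibitor of apoptosis (IAP) genes Birc2, Birc3 and Xiap, out of 78409 genes listed. They were chosen by name, with their levels in these same libraries already known, so every value and every call of theirs is given as a description, and no p-value is printed for them. The BCL2 family controls the mitochondrial route to cell death. Its guard proteins (the products of Bcl2, Bcl2l1, Mcl1 and Bcl2a1) hold back the pore-forming effectors, and BH3-only proteins such as BIM, encoded by Bcl2l11, bind the guards and release that brake. IAP proteins act further on: XIAP inhibits caspases, while the products of Birc2 and Birc3 are ubiquitin ligases of the tumour necrosis factor (TNF) receptor complex. In macrophages, Bcl2a1 and Birc3 are known as targets of the inflammatory transcription factor NF-κB.

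The cells were bone marrow-derived macrophages (BMDMs) grown from wild-type female C57BL/6J mice, used at day 7 of culture at 200000 cells per well, in serum-free medium. They were given either PBS or fractions of bronchoalveolar lavage fluid (BALF) from mice with airway inflammation induced by ovalbumin (OVA). The fluid came from RNY1+/+ mice or from RNY1-/- mice, which lack the Y RNA gene RNY1 in all cells through a CRISPR deletion, so the genotype is that of the fluid and never that of the macrophages. The methods name GemPharmatech as the source of the knockout mice and JAX for the rest, so supplier may go with the genotype of the fluid. The fractions had been stored for 5 days before use, and no storage is listed for PBS. The fraction enriched in extracellular vesicles (EVFx) was used at 35000000 particles/µL and the protein-enriched fraction (ProteinFx) at 0.75 µg/µL. These doses are in different units, and a difference between EVFx and ProteinFx is therefore one between 2 preparations and not between matched doses. Each of the 5 groups (PBS, RNY1+/+ EVFx, RNY1-/- EVFx, RNY1+/+ ProteinFx, RNY1-/- ProteinFx) had 4 libraries made by 3′ end sequencing. The length of the treatment, and whether replicates came from separate cultures or fluid donors, are not given in the sources used here, so the errors measure the spread between these libraries, which may be technical.

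Library totals ran from 2510005 to 8277366 counts with a median of 5456425. All 8 macrophage markers were present, at a summed 8620 to 12970 CPM (counts scaled to the library total). Of 12 neutrophil markers, 9 exceeded 3 counts in at least 1 library, and their summed level was 353 to 374 CPM with PBS, 176 to 232 CPM with RNY1+/+ EVFx, 212 to 289.5 CPM with RNY1-/- EVFx, 254 to 376 CPM with RNY1+/+ ProteinFx and 287 to 430.2 CPM with RNY1-/- ProteinFx. Of this neutrophil list, Ly6g, Mpo and Elane were at or under 3 counts in all 20 libraries. In every library S100a8 (496 to 1350 counts), S100a9 (308 to 1009), Mmp8 (44 to 261), Csf3r (29 to 243) and Ngp (4 to 87) exceeded 3 counts. Camp, Ltf, Cxcr2 and Retnlg did so in some libraries. What part the neutrophil list has in the results was not tested. The replicates were not all alike: the squared difference between PBS replicate 3 and the other PBS replicates was 16.8 to 34.75 times counting error, against 2.3 to 10.4 times among the other 3. In RNY1-/- ProteinFx, replicates 1 and 2 differed from replicates 3 and 4 by 13.3 to 15.7 times counting error, against 3.5 and 2.57 times within those pairs. Leaving out PBS replicate 3 changed no call among the 10 genes. In bulk RNA, fewer cells of a type and less RNA per cell cannot be told apart.

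Bcl2a1a, Bcl2a1b and Bcl2a1d encode the guard protein A1 and are close copies of each other on mouse chromosome 9. In GRCm38, Bcl2a1d lies at chr9:88723285-88731914 on the minus strand, Bcl2a1a at chr9:88956900-88962419 and Bcl2a1b at chr9:89199209-89207827, both on the plus strand. Each has a coding sequence of 519 bases, and the aligned coding sequences differ at 12 positions. The first 30 coding bases are shown because 5 of those positions fall there, the most in any stretch of 30 coding bases. The rest of the coding sequence separates the entries less. Capitals mark the positions at which the 3 genes are not all the same.
Bcl2a1a: atgGctgagtCTgagCtcatgCatatccac
Bcl2a1b: atgGctgagtACgagTtcatgTatatccac
Bcl2a1d: atgTctgagtACgagTtcatgTatatccac
In this stretch Bcl2a1a stood apart from both other genes at 4 positions and Bcl2a1d at 1. Over the whole coding sequence, 11 base changes separated Bcl2a1a from Bcl2a1b, 7 separated Bcl2a1a from Bcl2a1d and 6 separated Bcl2a1b from Bcl2a1d.

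This likeness bears on the measurement, because a read that fits several genes was counted in fractions. Of the 50-base windows of the transcript, 69.0% in Bcl2a1a, 79.2% in Bcl2a1b and 79.5% in Bcl2a1d occurred unchanged in another gene. The other genes include Gm29094, a gene model that overlaps Bcl2a1b and is described below. Windows found in at least 2 other Bcl2a1 genes made up 44.81%, 41.15% and 42.38%. Within the last 300 bases, where 3′ end reads fall, the shares found in any other gene were 64.5%, 76.5% and 94.8%. The other 7 genes stood in contrast, with 0 to 7.34% of windows shared over the transcript and 0 within the last 300 bases. Counts that were not whole numbers were accordingly found in 20 of 20 libraries for Bcl2a1a, in 19 for Bcl2a1b and in 17 for Bcl2a1d, and in 0 to 9 libraries for the other genes. The 3 entries can thus hold some of each other's reads, and their summed level is given beside them.

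Of the 3 entries, Bcl2a1a had the widest relative range over the groups. Its level was 69.4, 62.4, 56.5 and 65.6 CPM in the PBS libraries, 461, 449, 487 and 410.2 CPM with RNY1+/+ EVFx, and 352, 359, 381 and 452 CPM with RNY1-/- EVFx. With RNY1+/+ ProteinFx it was 401, 399, 389.6 and 393 CPM, and with RNY1-/- ProteinFx 195, 212, 219.7 and 188 CPM. Every treated library lay above every PBS library, and all 4 RNY1-/- ProteinFx libraries lay between PBS and the other treated groups. The mean was 63.5 ± 5.48 CPM in PBS (SD, n = 4, as in all means here) and 7.12, 6.08, 6.23 and 3.21 times as high with RNY1+/+ EVFx, RNY1-/- EVFx, RNY1+/+ ProteinFx and RNY1-/- ProteinFx. In the order of means, RNY1-/- EVFx (386 ± 45.7 CPM) and RNY1+/+ ProteinFx (396 ± 5.27 CPM) overlapped, while the other neighbours did not.

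Bcl2a1d followed with a smaller range. Its levels were 377, 339, 366 and 345 CPM in PBS, 935, 879, 899 and 776 CPM with RNY1+/+ EVFx, and 754, 754, 755 and 868 CPM with RNY1-/- EVFx. They were 1088, 1046, 1013 and 904 CPM with RNY1+/+ ProteinFx and 747, 815, 825 and 752 CPM with RNY1-/- ProteinFx. PBS was again below every treated library, and each treated group overlapped with its neighbour in the order from RNY1-/- EVFx (783 ± 57 CPM) to RNY1+/+ ProteinFx (1013 ± 78.7 CPM). By library totals, all libraries of both RNY1-/- groups lay below every RNY1+/+ ProteinFx library. After TMM scaling RNY1-/- ProteinFx (up to 789 CPM) still lay below RNY1+/+ ProteinFx (from 937 CPM), whereas RNY1-/- EVFx (up to 980 CPM) overlapped with it.

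Bcl2a1b had the smallest relative range of the 3. It was at 1002, 905, 898 and 924 CPM in PBS, at 1188, 1154, 1173 and 985 CPM with RNY1+/+ EVFx, and at 998, 1021, 1037 and 1154 CPM with RNY1-/- EVFx. With RNY1+/+ ProteinFx it was at 1653, 1548, 1503 and 1268 CPM, and with RNY1-/- ProteinFx at 1511, 1588, 1435 and 1387 CPM. PBS and both EVFx groups overlapped on this scale, whereas after TMM scaling both EVFx groups (from 1058 CPM) lay above PBS (up to 918 CPM), and every ProteinFx library exceeded every PBS and EVFx library. The ratio of means to PBS was 1.21 and 1.13 for the EVFx groups and 1.60 and 1.59 for the ProteinFx groups.

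The transcripts of the 3 entries are of similar length (819, 817 and 863 bases). Another gene shares 64.5%, 76.5% and 94.8% of the windows in their last 300 bases. The shares that follow are therefore shares of the counts as assigned, which need not compare as levels of RNA. In PBS, Bcl2a1b made up 68.9% of the summed level of the locus, Bcl2a1d 26.4% and Bcl2a1a 4.69%. With RNY1+/+ EVFx the share of Bcl2a1b was 45.9% and that of Bcl2a1a 18.4%. The Bcl2a1a share was 17.3% with RNY1-/- EVFx, 13.7% with RNY1+/+ ProteinFx and 8.25% with RNY1-/- ProteinFx, and Bcl2a1c, the remaining paralog, held at most 0.13%. The summed level was 1354 ± 65.1 CPM in PBS, and the treated means were 1.81, 1.64, 2.14 and 1.83 times that in the order used above. Reads that fit all 3 entries and were divided evenly over them cannot exceed 3 times the smallest entry. That upper limit, which does not cover reads shared by a pair of entries, was 12.8% to 14.7% of the locus in PBS, 53.4% to 57.1% with RNY1+/+ EVFx and 23.8% to 26.6% with RNY1-/- ProteinFx.

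**Figure D1:**
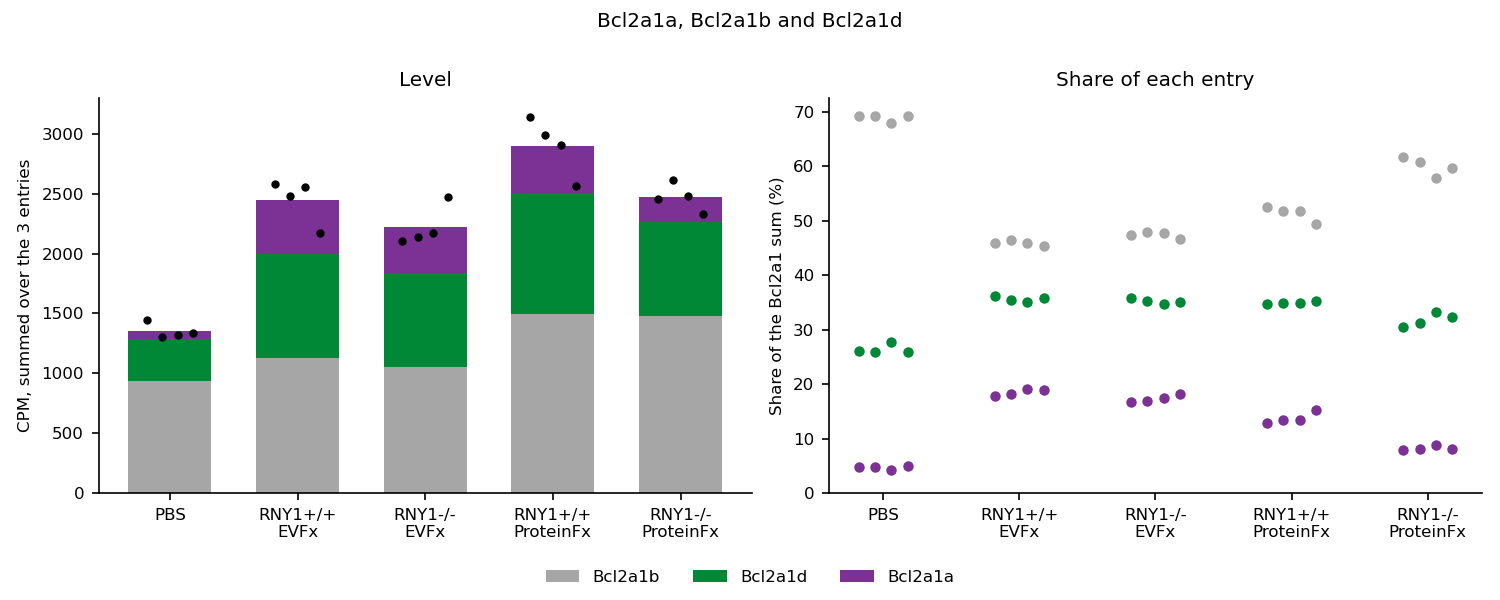
Left, the level in CPM of Bcl2a1b, Bcl2a1d and Bcl2a1a, stacked as group means, with each point the sum in 1 library, and right, the share of each entry in the summed level in percent, 1 point per library. The sum was higher in every treated library than in PBS, while the share of Bcl2a1a went from 4.69% in PBS to 18.4% with RNY1+/+ EVFx.

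A further gene model, Gm29094 (chr9:89199379-89215471, plus strand), shares 401 of the 817 exonic bases of Bcl2a1b, and how reads in the overlap were assigned is not given in the sources used here. It was looked at after the values were seen. Its level was 294 ± 51.2 CPM in PBS, 303 ± 21.1 CPM with RNY1+/+ EVFx and 211 ± 9.36 CPM with RNY1-/- EVFx, and 301 ± 42 CPM and 327 ± 66.9 CPM with RNY1+/+ and RNY1-/- ProteinFx. Adding it to the Bcl2a1 entries gave 1.67, 1.48, 1.95 and 1.70 times PBS.

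Mcl1, the guard with a short-lived protein, was lower with EVFx than with ProteinFx. Its level was 475, 467, 499.8 and 521 CPM in PBS, 361, 359.7, 354 and 328 CPM with RNY1+/+ EVFx, and 415, 406, 335 and 376 CPM with RNY1-/- EVFx. The ProteinFx libraries held 647, 609, 599 and 589.7 CPM (RNY1+/+) and 630.2, 617, 595 and 583 CPM (RNY1-/-). By library totals all 8 EVFx libraries lay below PBS and all 8 ProteinFx libraries above it, with mean ratios of 0.715 and 0.781 for EVFx and 1.25 and 1.24 for ProteinFx. After TMM scaling RNY1-/- EVFx (343 to 470.3 CPM) overlapped with PBS (413 to 494 CPM). The genotypes overlapped within each fraction.

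Bcl2, the founding guard of the family, was above PBS with EVFx and not with ProteinFx. Its values were 32.6, 25.6, 28.8 and 21.5 CPM in PBS, 32.8, 33.5, 39.4 and 40.0 CPM with RNY1+/+ EVFx, and 36.1, 37.1, 42.6 and 36.0 CPM with RNY1-/- EVFx. They were 20.7, 16.5, 27.9 and 19.8 CPM with RNY1+/+ ProteinFx and 22.1, 20.6, 26.3 and 23.3 CPM with RNY1-/- ProteinFx. Both EVFx groups lay above PBS without overlap, by 1.34 and 1.40 times, and both ProteinFx groups overlapped with PBS.

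Bcl2l1, which encodes BCL-XL, was counted with 17 to 201 reads per library and is the least precise of the guards. It stood at 30.5, 31.1, 15.6 and 21.5 CPM in PBS, at 14.99, 11.6, 13.01 and 16.1 CPM with RNY1+/+ EVFx, and at 6.3, 7.89, 5.91 and 5.05 CPM with RNY1-/- EVFx. RNY1+/+ ProteinFx gave 13.97, 15.97, 17.1 and 12.7 CPM, and RNY1-/- ProteinFx 14.4, 14.3, 11.6 and 4.41 CPM. RNY1-/- EVFx was below PBS and below RNY1+/+ EVFx in every library. The low PBS library, replicate 3, overlapped with RNY1+/+ EVFx and RNY1+/+ ProteinFx, and the 4.41 CPM of RNY1-/- ProteinFx replicate 4 rested on the 17 reads. RNY1-/- ProteinFx lay below PBS by library totals and overlapped with it after TMM scaling.

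Bcl2l11 encodes BIM, the BH3-only protein that binds all the guards. Its levels were 183, 172, 229 and 203 CPM in PBS, 74.9, 81.8, 71.8 and 70.9 CPM with RNY1+/+ EVFx, and 121, 114, 104 and 89.3 CPM with RNY1-/- EVFx. With ProteinFx they were 142, 157, 118 and 113 CPM (RNY1+/+) and 219.8, 226, 236 and 233 CPM (RNY1-/-). Both EVFx groups and RNY1+/+ ProteinFx lay below PBS without overlap, while RNY1-/- ProteinFx overlapped with PBS by library totals and lay above it after TMM scaling. In both fractions the RNY1-/- libraries were above the RNY1+/+ libraries without overlap.

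Among the IAP genes, Birc3 (cIAP2) was the one with a large range. It was at 30.7, 28.7, 33.6 and 35.6 CPM in PBS, 199, 201, 203 and 195 CPM with RNY1+/+ EVFx, and 199.8, 209.6, 189 and 205 CPM with RNY1-/- EVFx. RNY1+/+ ProteinFx gave 121, 129.6, 106 and 139 CPM and RNY1-/- ProteinFx 102, 101, 96.1 and 100.1 CPM. The groups formed 4 separate levels, PBS, RNY1-/- ProteinFx, RNY1+/+ ProteinFx and then EVFx of both genotypes, which overlapped. Relative to PBS the means were 6.19 and 6.24 times as high with EVFx of RNY1+/+ and RNY1-/- mice, and 3.84 and 3.1 times as high with ProteinFx.

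Birc2 (cIAP1), the neighbour of Birc3 on chromosome 9, stayed low in all 5 groups with 34.75 to 95 counts per library. It measured 9.63, 11.4, 15.1 and 7.79 CPM in PBS, 11.2, 11.9, 14.6 and 9.66 CPM with RNY1+/+ EVFx, and 12.2, 11.7, 14.5 and 12.1 CPM with RNY1-/- EVFx. It measured 13.1, 12.8, 11.1 and 15.4 CPM with RNY1+/+ ProteinFx and 14.9, 12.03, 13.8 and 16.9 CPM with RNY1-/- ProteinFx. Each group overlapped with the next in the order of means.

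Xiap, the caspase inhibitor on the X chromosome, had 105, 101, 172 and 124 CPM in PBS, 107, 103, 104 and 88.2 CPM with RNY1+/+ EVFx, and 158, 149, 174 and 153 CPM with RNY1-/- EVFx. It had 168, 184, 146 and 184 CPM with RNY1+/+ ProteinFx and 143, 147, 228 and 216 CPM with RNY1-/- ProteinFx. The EVFx genotypes did not overlap, but PBS replicate 3 reached the level of RNY1-/- EVFx and RNY1+/+ ProteinFx, which both lay above PBS after TMM scaling, and the RNY1-/- ProteinFx libraries fell into a lower and a higher pair.

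**Figure D2:**
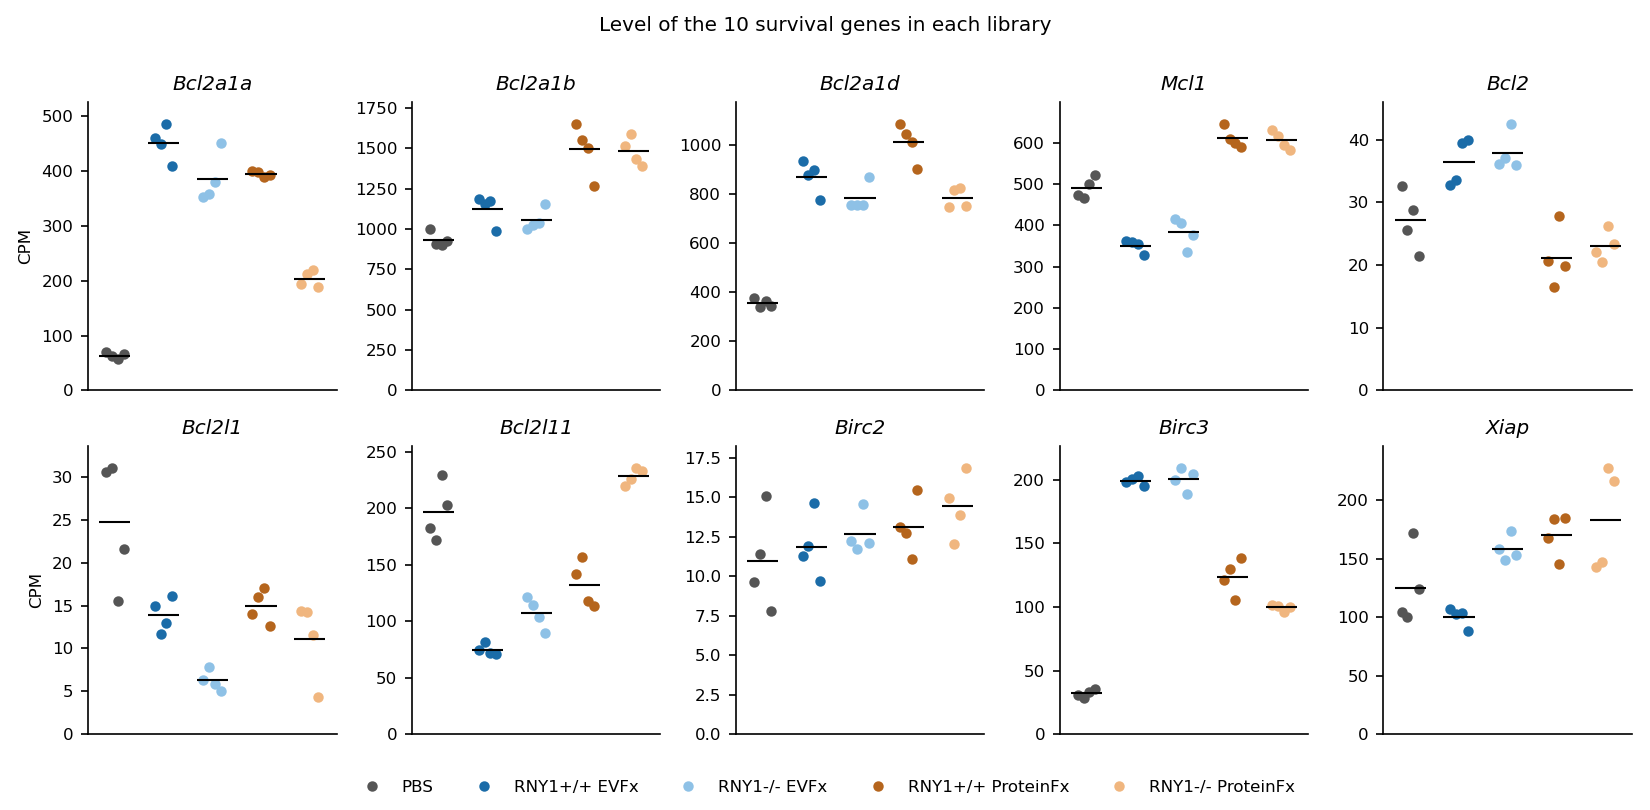
Level of each of the 10 genes in CPM, from 0 on its own linear axis, with 1 point per library in 5 groups of 4 and a line at the group mean. Bcl2a1a, Bcl2a1d and Birc3 had every treated library above PBS, Mcl1 divided on this scale into EVFx below and ProteinFx above PBS (RNY1-/- EVFx overlapped with PBS after TMM scaling), and Birc2 overlapped in neighbouring groups.

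The same values were then set in the fits of edgeR across all genes, in which libraries are scaled by TMM and a gene is called when its adjusted p is below 0.05 and its log2 fold change exceeds 1 in size. TMM shifts the median log2 fold change by up to 0.24 from that of library totals (by -0.18 for RNY1+/+ EVFx, -0.24 for RNY1-/- EVFx and -0.17 for RNY1+/+ ProteinFx against PBS when totals replace TMM), so these values differ somewhat from the CPM ratios. All 10 genes passed the filter on low values in every comparison. Against PBS, RNY1+/+ EVFx had 3 of the 10 called higher and 1 lower, beside 8.24% and 8.20% of all genes tested. RNY1-/- EVFx had 3 higher and 1 lower, beside 9.02% and 13.5%. RNY1+/+ ProteinFx had 3 higher and 0 lower, beside 8.96% and 12.4%, and RNY1-/- ProteinFx had 3 higher and 1 lower, beside 6.31% and 7.99%. The median log2 fold change of the 10 genes was 0.37, 0.51, 0.55 and 0.55 in that order, against -0.03 over all genes tested in each. As the genes were selected with these contrasts in view, nothing is read from the counts or the medians.

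The 3 genes called higher were Bcl2a1a, Bcl2a1d and Birc3 in each of the 4 treatments. For Bcl2a1a the log2 fold change was 3.01 (SE 0.11) with RNY1+/+ EVFx, 2.85 (SE 0.13) with RNY1-/- EVFx, 2.81 (SE 0.11) with RNY1+/+ ProteinFx and 1.75 (SE 0.12) with RNY1-/- ProteinFx. Birc3 had 2.81 (SE 0.11), 2.88 (SE 0.11), 2.11 (SE 0.13) and 1.70 (SE 0.11) in the same order, and Bcl2a1d 1.47 (SE 0.10), 1.38 (SE 0.11), 1.67 (SE 0.10) and 1.21 (SE 0.10). Bcl2a1b stayed under the fold limit with 0.45, 0.42, 0.85 and 0.73. When the Bcl2a1 counts were summed before the fit, the log2 fold change of the sum was 1.03, 0.96, 1.27 and 0.94, which passes the limit with RNY1+/+ EVFx and RNY1+/+ ProteinFx and not with the RNY1-/- fractions.

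Lower than PBS were Bcl2l11 with RNY1+/+ EVFx, at -1.22 (SE 0.11), and Bcl2l1 with RNY1-/- EVFx, at -1.73 (SE 0.23), and with RNY1-/- ProteinFx, at -1.07 (SE 0.32). The last call was lost without PBS replicate 1 or 2, without RNY1-/- ProteinFx replicate 3 or 4, and with trends along transcript length and GC content removed (-0.70), and its value ran from -1.23 to -0.82 as single libraries were left out. For Bcl2l11 the other treatments gave -0.63 (SE 0.12) with RNY1-/- EVFx, -0.40 (SE 0.13) with RNY1+/+ ProteinFx and 0.29 (SE 0.12) with RNY1-/- ProteinFx. Mcl1 stayed within the limit at -0.31 and -0.12 with EVFx and 0.49 and 0.37 with ProteinFx, as did Bcl2 at 0.60 and 0.72 with EVFx and -0.19 and -0.17 with ProteinFx. Birc2 ranged from 0.28 to 0.46 and Xiap from -0.14 to 0.63. The Xiap value with RNY1+/+ EVFx ran from -0.24 to 0.04 as single libraries were left out.

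**Figure D3:**
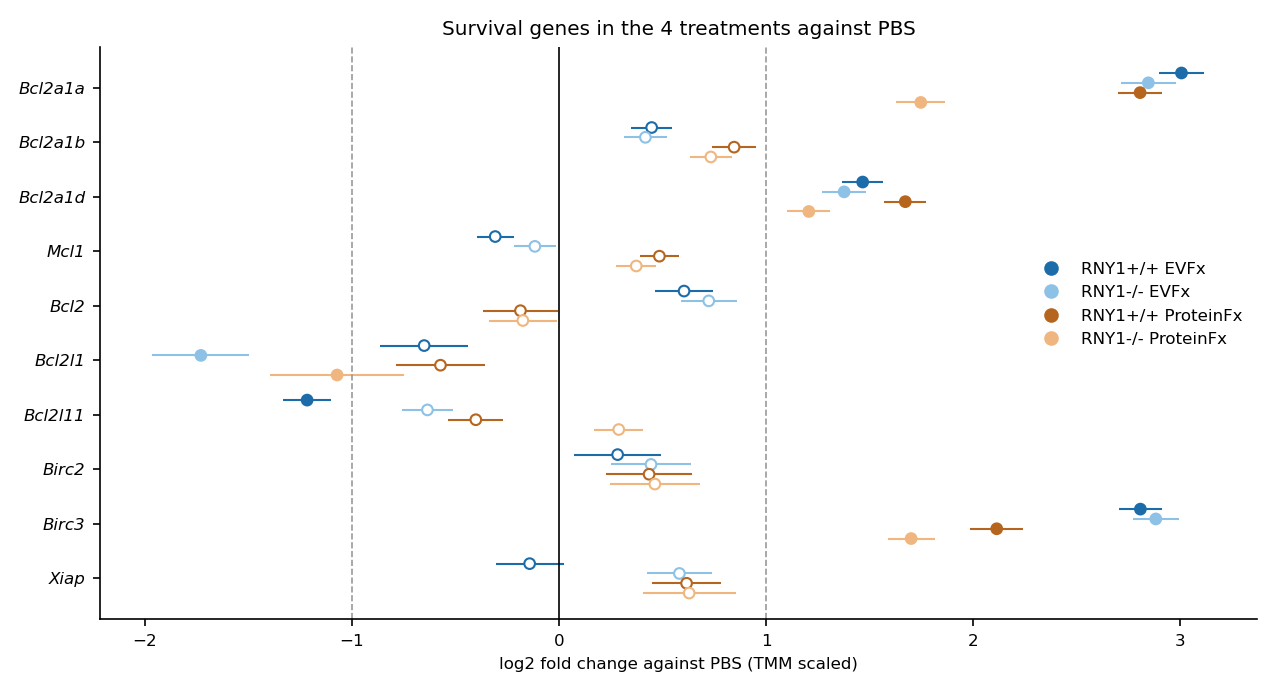
Log2 fold change against PBS (TMM scaled) of each gene in the 4 treatments, with bars of 1 SE, dashed lines at the fold limit of 1 and filled points for called genes. Bcl2a1a, Bcl2a1d and Birc3 are filled to the right in all 4 treatments, from 1.21 to 3.01, and Bcl2l1 and Bcl2l11 hold the filled points on the left.

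The genotype of the fluid was compared within each fraction. In EVFx, RNY1-/- against RNY1+/+, 0 of the 10 genes were called higher and 1 lower, beside 0.378% and 1.98% of all genes tested. Without RNY1+/+ EVFx replicate 4 the calls over all genes went from 243 (2.35%) to 99 (0.96%). The gene called was Bcl2l1, at -1.07 (SE 0.16), with means of 6.29 ± 1.19 and 13.9 ± 1.98 CPM. Xiap was at 0.73 (SE 0.08), Bcl2l11 at 0.59 (SE 0.09), Mcl1 at 0.20 (SE 0.08) and Bcl2a1a at -0.15 (SE 0.10). Across all genes with a known sequence in this comparison, log2 fold change and GC content had a Spearman rho of -0.65, given as a description since genes are not independent. Bcl2l1 had the highest GC content of the 10 transcripts (55.9%) and Xiap the lowest (36.8%), with the others from 43.1% to 48.7%. With the length and GC trends removed, rho was -0.04, Bcl2l1 was at -0.63 and no longer called, Xiap was at 0.23 and Bcl2l11 at 0.53. The part of base composition in these values was not tested further.

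In ProteinFx, RNY1-/- against RNY1+/+, 0 of the 10 were called higher and 1 lower, beside 0.659% and 1.17%, and the calls over all genes went from 191 to 116 without RNY1+/+ ProteinFx replicate 4. Bcl2a1a was the gene called, at -1.04 (SE 0.10), from 396 ± 5.27 to 204 ± 14.8 CPM, and it was at -1.04 also with the trends removed and at -0.96, under the fold limit, with library totals in place of TMM. Bcl2a1d was at -0.45 (SE 0.10) and Bcl2a1b at -0.10 (SE 0.10), so that the Bcl2a1 sum was at -0.32. Bcl2l11 was at 0.70 (SE 0.12) and Birc3 at -0.40 (SE 0.11). The remaining genes lay from -0.47 (Bcl2l1) to 0.03 (Birc2).

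The genotype difference itself was compared between fractions by the interaction term, called at an adjusted p below 0.05 with no fold limit. Of the 10 genes 5 were called, beside 33.0% of all genes tested. That share was 18.4% without RNY1-/- ProteinFx replicate 2, 20.6% without its replicate 1, 22.0% without RNY1+/+ EVFx replicate 4, 21.1% with length and GC trends removed and 11.5% without the filter on low values. It was higher, at 44.4% and 40.5%, without RNY1-/- ProteinFx replicate 3 and replicate 4. Bcl2a1a differed most, with a genotype difference lower in ProteinFx than in EVFx by -0.89 (SE 0.14) on the log2 scale, followed by Xiap at -0.71 (SE 0.21), Birc3 at -0.48 (SE 0.12), Bcl2a1d at -0.37 (SE 0.13) and Mcl1 at -0.30 (SE 0.11). With length and GC trends removed Bcl2a1a was at -0.69, Birc3 at -0.41 and Mcl1 at -0.33, while Xiap at -0.20 and Bcl2a1d at -0.19 were no longer called. Without the filter on low values Birc3, Bcl2a1d and Mcl1 lost the call, and with library totals Bcl2a1d (-0.21) and Mcl1 (-0.14) did. The Mcl1 call was also lost in 14 of 16 fits that left out a library, and that of Bcl2a1d in 8 of 16. Bcl2l11, higher with RNY1-/- fluid in both fractions, was not among the genes called.

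**Figure D4:**
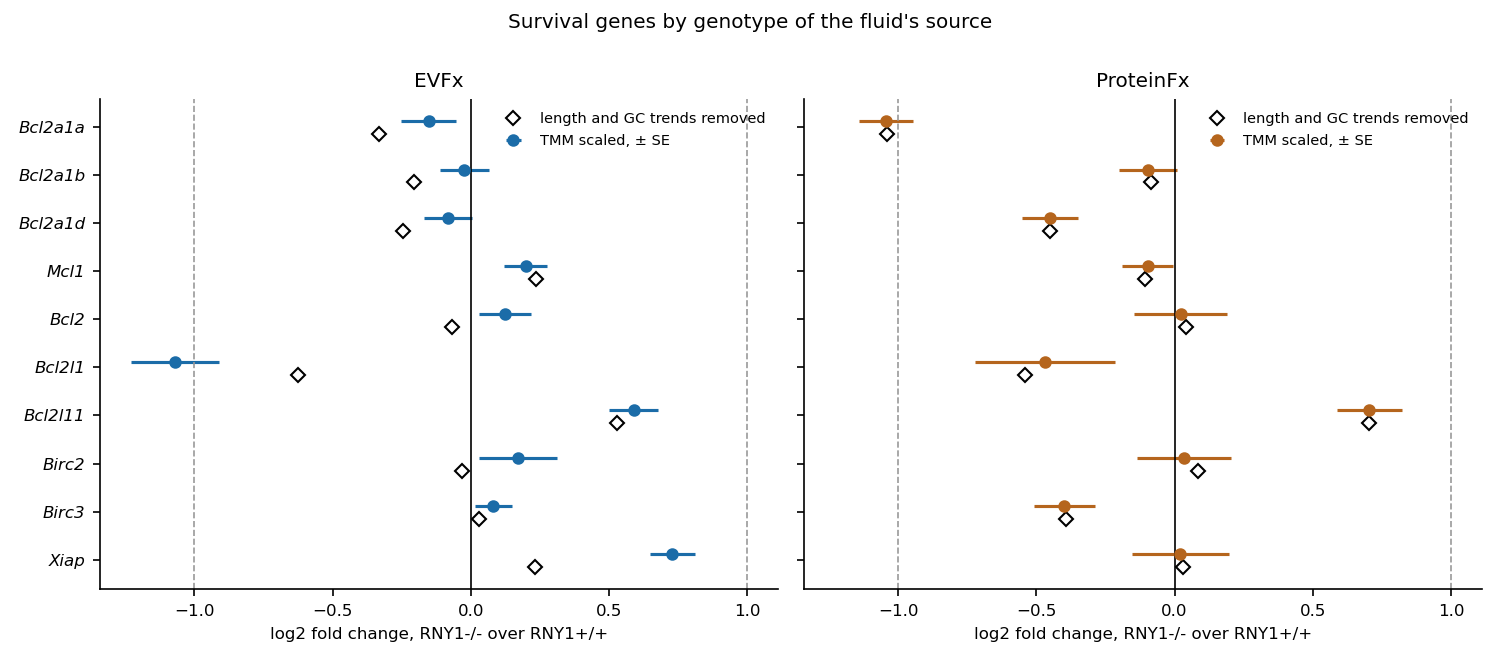
Log2 fold change of RNY1-/- over RNY1+/+ fluid in EVFx (left) and ProteinFx (right), filled points with bars of 1 SE from the TMM-scaled fit and open diamonds with length and GC trends removed, dashed lines at the fold limit of 1. In EVFx the diamonds of Bcl2l1 (-0.63) and Xiap (0.23) lie nearer to 0 than the points, and in ProteinFx Bcl2a1a is at -1.04 under both.

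Between fractions of the same genotype, no gene of the 10 was called in RNY1+/+ ProteinFx against RNY1+/+ EVFx (0 higher, 0 lower, beside 6.71% and 6.82%). That count of 0 was by edgeR and also by DESeq2. When the fold limit was dropped, 8 of the 10, of which 5 were higher, had an unadjusted and an adjusted p below 0.05. Of all genes tested, 63.3% had an adjusted p below 0.05. Bcl2l11 was at 0.82 (SE 0.10), Mcl1 at 0.80 (SE 0.08), Xiap at 0.77 (SE 0.10), Bcl2 at -0.78 (SE 0.14) and Birc3 at -0.68 (SE 0.09). With trends removed Bcl2 was at -1.02 and called lower, and Xiap at 0.16. In RNY1-/- ProteinFx against RNY1-/- EVFx, 0 were called higher and 2 lower, beside 4.98% and 4.05%. These were Birc3 at -1.17 (SE 0.09) and Bcl2a1a at -1.09 (SE 0.12), the latter lost with library totals (-0.92) and without RNY1-/- EVFx replicate 4 (-0.98). In that comparison Bcl2l11 was at 0.93 (SE 0.11), and at 1.09 and called higher with library totals, Bcl2 at -0.89 (SE 0.12) and Mcl1 at 0.50 (SE 0.10).

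The rest of the apoptosis machinery was counted over 4 lists that leave out the 10 genes: other BCL2 family genes, IAPs with their antagonists, caspases with the apoptosome, and death receptors with the TNF receptor complex, 61 genes in all. The lists were chosen with earlier results known, and genes are named for being called with the largest changes. Their adjusted p-values are therefore also a description. With RNY1+/+ EVFx against PBS, 50 were tested, of which 12 rose and 1 fell (beside 8.24% and 8.20% of all genes), with a median log2 fold change of 0.21 against -0.03 over all genes tested. The death receptor list held 7 of the genes that rose, among 19 tested, and none that fell. Traf1, an adaptor that binds the cIAPs, rose by 3.86 (edgeR, adjusted p = 4.69e-08), from 5.25 to 67.1 CPM. Fas, the death receptor, rose by 2.91 (edgeR, adjusted p = 3.89e-08) and Tnfrsf1b, the receptor TNFR2, by 2.58 (edgeR, adjusted p = 3.35e-08). Cflar, which encodes the caspase-8 inhibitor cFLIP, rose by 2.39 (edgeR, adjusted p = 3.73e-08), from 96.2 to 446 CPM, and Cycs, cytochrome c, by 1.09, under the limit with library totals (0.91) or trends removed (0.90). The XIAP antagonist Xaf1 rose by 2.49 (edgeR, adjusted p = 6.21e-08) and Naip2, an inflammasome sensor of the IAP family, by 1.23. In the BCL2 family 1 of 9 tested genes rose, the BH3-only gene Pmaip1 (NOXA), by 1.17 (edgeR, adjusted p = 4.07e-05), from 12.9 to 25.7 CPM, and it was under the limit with library totals (0.99) or trends removed (0.96).

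RNY1-/- EVFx gave 12 higher and 3 lower of 50 (beside 9.02% and 13.5%), with 7 again on the death receptor list, and a median of 0.09. RNY1+/+ ProteinFx gave 9 higher and 5 lower of 50 (beside 8.96% and 12.4%), of which 5 higher and 1 lower were death receptor genes. With length and GC trends removed 10 were called, 9 of them higher, beside 16.5% of all genes called, of which 49.1% were higher. Here Tnfaip3, which encodes the NF-κB inhibitor A20, rose by 2.11 (edgeR, adjusted p = 2.02e-06), Tnfrsf1b by 2.04 and Mlkl, the necroptosis effector, by 1.89 (edgeR, adjusted p = 3.82e-06). Cflar rose by 1.61 and Cycs by 1.28, the latter under the limit with trends removed (0.77). Xaf1 rose by 2.63 (edgeR, adjusted p = 4.56e-09), and Htra2, a mitochondrial protease that antagonises IAPs, fell by 1.38 on the log2 scale (edgeR, adjusted p = 0.000742), and was at -0.73 and not called with trends removed. RNY1-/- ProteinFx gave 5 higher and 4 lower of 50, beside 6.31% and 7.99%.

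By genotype, 2 of 48 tested list genes fell in EVFx and none rose, beside 1.98% and 0.378% of all genes. These were the BH3-only gene Bad, at -1.30 (edgeR, adjusted p = 0.000655) with 2.2 against 5.65 CPM, and the TNF receptor adaptor Traf2, at -1.10 (edgeR, adjusted p = 0.000618) with 4.35 against 9.63 CPM, and neither was called with length and GC trends removed. In ProteinFx 2 of 49 were called lower (beside 1.17%), both of the TNF receptor list, Tnfaip3 at -1.10 (edgeR, adjusted p = 0.00844) with 77.3 against 155 CPM and Traf1 at -1.01 (edgeR, adjusted p = 0.0459). Under the fold limit in this comparison were Tnfrsf1b at -0.92 (edgeR, adjusted p = 0.000353) and Cflar at -0.87 (edgeR, adjusted p = 0.000785). As single libraries were left out Tnfaip3 ran from -1.29 to -0.96, its call lost without RNY1+/+ ProteinFx replicate 4 or RNY1-/- ProteinFx replicate 1 or 2. Traf1 ran from -1.17 to -0.69, its call lost in 6 of 8 such fits, with library totals, without the filter and with the replicate block (-0.98). Between fractions, ProteinFx against EVFx had 3 higher and 7 lower of 50 for RNY1+/+ (beside 6.71% and 6.82%). With trends removed these became 5 and 5, beside 10.1% of all genes called, of which 56.1% were higher. For RNY1-/- there were 1 higher and 7 lower of 48 (beside 4.98% and 4.05%).

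The genes whose levels followed the survival genes most closely over the 20 libraries are given as a description, over 7454 genes, with the groups shared by all points. Nearest to the Bcl2a1 sum by Pearson r on log2 levels were Parp12 (0.971), Slco3a1 (0.971), Cd38 (0.968), Usp18 (0.968) and Jak2 (0.968). Parp12 and Usp18 are known as interferon-induced genes and Jak2 as a kinase of cytokine receptors. For Bcl2a1a alone, added after its values were seen, the nearest were Cebpb (0.989), Sod2 (0.989) and Car13 (0.989). For Birc3 they were Itgal (0.994), Ripk2 (0.987) and Gpd2 (0.987), and for Bcl2 Tshz1 (0.938), Ptgr1 (0.927) and Plk2 (0.919).

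Promoters were searched in RefSeq windows of 300 bases on GRCm38.p6, from 250 bases before to 50 after each start, with 16 windows for the 10 genes and 32851 windows in all. The motifs, read on both strands, were the NF-κB consensus, the interferon-stimulated response element (GAAA, any 2 bases, GAAA), the gamma-activated site (TTC, any 3 bases, GAA) and a loose AP-1 pattern (TGANTCA, with any base as N). Of all windows 4.51% held the NF-κB motif, 3.44% the interferon element, 8.3% the gamma-activated site and 7.81% the loose AP-1 pattern. Among the survival genes 3 windows held the loose AP-1 pattern, those of Bcl2a1a, Bcl2a1b and Bcl2a1d, and 1 held NF-κB, that of Bcl2l1. All 3 matches to the loose pattern read TGAATCA, without the C or G in the middle that the usual AP-1 site has. The stretch around this loose match is printed because the 3 paralogs share it almost letter for letter while their ratios to PBS differed. Capitals mark the match, and the whole printed stretch lies at chr9:88956714-88956855 (plus strand) for Bcl2a1a, chr9:89199023-89199164 (plus strand) for Bcl2a1b and chr9:88731915-88732050 (minus strand) for Bcl2a1d.
Bcl2a1a: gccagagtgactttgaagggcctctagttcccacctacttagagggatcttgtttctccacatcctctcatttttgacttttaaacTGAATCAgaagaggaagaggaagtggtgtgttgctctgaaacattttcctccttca
Bcl2a1b: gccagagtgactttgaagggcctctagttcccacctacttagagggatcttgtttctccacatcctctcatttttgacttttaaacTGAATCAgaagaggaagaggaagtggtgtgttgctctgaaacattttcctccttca
Bcl2a1d: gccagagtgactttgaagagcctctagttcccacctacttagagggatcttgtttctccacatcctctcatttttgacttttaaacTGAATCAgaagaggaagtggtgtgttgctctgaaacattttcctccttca
The 142 bases of Bcl2a1a and Bcl2a1b were identical, and the 136 bases of Bcl2a1d were 7 edits away. The match began 100, 100 and 50 bases before the GENCODE starts of Bcl2a1a, Bcl2a1b and Bcl2a1d, and 120, 164 and 114 bases before the RefSeq starts. A match of letters is a description of the sequence and says nothing about binding.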

How the data were processed

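RNA of 20 BMDM libraries was sequenced from the 3′ end with oligo(dT) priming and unique molecular identifiers. Per the labels and the methods, the authors trimmed reads with fastp 0.24.0, aligned them to GRCm39 with STAR 2.7.11 and collapsed duplicates by molecular identifier. The expected counts deposited by the authors come from featureCounts (Subread 2.1.1), strand-specific, with reads of several loci counted in fractions, and the deposited CPM values equal count over library total within 4.7e-06.

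Counts were rounded and tested with edgeR 4.0.16 (R 4.3.3, quasi-likelihood, TMM) on the libraries of each comparison, keeping genes that passed filterByExpr and averaged 3 CPM or more across those 8 libraries. P-values were adjusted by Benjamini-Hochberg over the 10321 to 10855 genes tested between 2 groups. SE was taken from the log2 fold change and the F statistic. DESeq2 1.42.0, library totals, no filter, all 20 libraries in 1 fit, no fold limit, summed Bcl2a1 counts, a replicate block and leaving out each library were alternatives. Removal of trends along transcript length and GC content was added after seeing the data. The 10 genes, the lists and the tests were chosen with earlier results of these data known.

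From each list the text names, for each RNY1+/+ fraction against PBS, up to 3 called genes of largest change that averaged 10 CPM or more, and every called gene (at most 3) by genotype. A gene that this rule names is not reported here. Gm29094, the genes most like Bcl2a1a and the library-level remarks were chosen after their values were seen. Sequences, positions and base composition came from GENCODE M21 and RefSeq (GRCm38), and no coordinates were taken from the deposited files. The fits were tested on simulated data with known fold changes.

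Replicate numbers recur in every group. Same-numbered libraries deviated together in every pair (correlation above 0.1) for RNY1-/- EVFx against PBS (0.164 to 0.49) and RNY1-/- ProteinFx against RNY1-/- EVFx (0.187 to 0.505), over 7534 genes, as read from the data alone, and not in every pair of the other comparisons. In RNY1-/- ProteinFx against PBS 3 pairs had 0.622 to 0.727 and the pair of replicate 4 had 0.0474. Libraries with different numbers were not correlated, so these values cannot show that the replicate numbers mark pairs.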

Additional observations from a re-analysis of the deposited data

Results flagged for a closer look

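In 50 groups of 4 libraries (10 genes in 5 groups), 3 held a library apart from the rest by Dixon's criterion on the gap to the nearest library over the group's range, where chance alone would pick about 1 in 20 groups. Bcl2a1b was low in RNY1+/+ EVFx replicate 4, at 985 CPM. Bcl2a1d was high in RNY1-/- EVFx replicate 4, at 868 CPM. Bcl2 was high in RNY1-/- EVFx replicate 3, at 42.6 CPM.

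The genotype difference (RNY1-/- over RNY1+/+) was called different between ProteinFx and EVFx by the interaction term for 5 genes, beside 33.0% of all genes tested. On the log2 scale the difference was -0.89 for Bcl2a1a, -0.37 for Bcl2a1d, -0.48 for Birc3, -0.30 for Mcl1 and -0.71 for Xiap. The call of Mcl1 was lost in 14 fits that left out a library and that of Bcl2a1d in 8. Xiap and Bcl2a1d lost it with length and GC trends removed, and Birc3, Bcl2a1d and Mcl1 without the filter on low values.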

How the results depend on the processing

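Called values of the 10 genes kept their sign under every alternative run. Of 1393 alternative log2 fold changes of the 10 genes, 1313 lay nearer to the main value than the SD between replicate libraries. Many of the 1393 came from leaving out 1 library, which by construction moves a mean little beside that SD. The count is therefore no measure of robustness. The other 80 moved further, 45 of them with length and GC trends removed and 34 with library totals. Without the fold limit the 10 genes had 8, 8, 8 and 7 calls against PBS (RNY1+/+ EVFx, RNY1-/- EVFx, RNY1+/+ ProteinFx, RNY1-/- ProteinFx), 4 by genotype in EVFx, 3 in ProteinFx, 8 for ProteinFx against EVFx with RNY1+/+ and 6 with RNY1-/-. Of all genes tested, 44.5%, 58.3%, 55.2%, 35.7%, 52.1%, 5.57%, 63.3% and 29.2% were called without that limit, in the same order. The list genes then had 22, 30, 32, 26, 25, 4, 36 and 20 calls in the same order, where the limit left 13, 15, 14, 9, 2, 2, 10 and 8. Summing Bcl2a1 left 2 calls for RNY1-/- EVFx and 2 for RNY1-/- ProteinFx against PBS, 0 by genotype in ProteinFx, 1 between the RNY1-/- fractions and 3 for the interaction. Of all genes 22.5%, 14.3%, 1.81%, 9.02% and 32.9% were called there, in the same order. Trend removal left 0 of the 10 genes and 0 list genes by genotype in EVFx, 3 for the interaction, and added 1 between the RNY1+/+ fractions. Beside these stood 0.93%, 21.1% and 10.1% of all genes. Library totals left 0 of the 10 and 1 list gene by genotype in ProteinFx and 3 for the interaction, and no filter left 2 for the interaction. Of all genes, 1.91% and 33.5% were called with library totals, and 11.5% without the filter. The replicate block left 1 list gene by genotype in ProteinFx, beside 1.65% of all genes. It changed no other call count by over 1.5 times, also where all same-numbered libraries deviated together. Leaving out single libraries gave 0 to 3 list genes by genotype in ProteinFx, 1 to 2 of the 10 between the RNY1-/- fractions and 3 to 5 for the interaction. Over all genes those shares ran from 1.1% to 2.38%, from 8.58% to 9.6% and from 18.4% to 44.4%. The interaction count was 3 without RNY1+/+ EVFx replicate 2 or 4, RNY1-/- EVFx replicate 1 or 4, RNY1+/+ ProteinFx replicate 1 or 2, or RNY1-/- ProteinFx replicate 1 or 2.

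Over all genes, library totals moved the share of calls that were higher from 50.1% to 37.3% (RNY1+/+ EVFx), 40.0% to 24.5% (RNY1-/- EVFx) and 42.0% to 29.4% (RNY1+/+ ProteinFx) against PBS, from 36.1% to 50.5% by genotype in ProteinFx, from 55.2% to 68.9% between RNY1-/- fractions and from 50.9% to 73.7% for the interaction. Trend removal moved it from 44.1% to 57.7% for RNY1-/- ProteinFx against PBS and by genotype in EVFx from 39 of 243 calls to 59 of 93 (63.4%). Depth limits Bcl2l1 (17 to 201 counts) and Birc2 (34.75 to 95 counts).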
